A study of Mus musculus with 162 samples.

Results

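The nuclear genes of oxidative phosphorylation are the genes of the cell nucleus that encode subunits of the 5 complexes of mitochondrial ATP production and cytochrome c. They were chosen by gene symbol from the authors' normalized table: Nduf followed by a, b, c, s or v and a digit, Uqcr, Atp5, Cox4 to Cox8, the 4 Sdh genes, Cycs and Cyc1, without pseudogenes. This gave 86 of 22800 genes: 37 of complex I, 4 of complex II, 9 of complex III, 18 of complex IV, 17 of complex V and Cycs, which encodes cytochrome c. Genes were put in complexes by symbol throughout, and the symbols do not follow function in every case. Ndufa4 is known as a subunit of complex IV, Cox7a2l as a factor that joins complexes into supercomplexes, and Atp5s and Atp5sl (Dmac2 in the annotation) as factors rather than classical subunits of ATP synthase; Ndufab1, a complex I subunit, was not caught by the symbols.

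Each sample was the cytosol of 1 cell of a mouse embryo at E17.5 to E18.5, drawn into a patch-clamp pipette and sequenced. The 162 cells came from 3 Cre lines named for the gene that drives the recombinase. Lhx6, a transcription factor gene of interneurons, named the line of 22 cells, Nex (Neurod6), active in glutamatergic neurons, that of 18 and Htr3a, which encodes an ion-channel receptor for serotonin, that of 122; the labels do not say how the lines were made, what reporter they carry or which region the cells came from. The 148 cells that passed the submitters' quality control are described here: 18 labelled MGE-derived 1, 24 MGE-derived 2, 11 CGE-derived, 4 GABAergic, 12 Cajal Retzius, 11 VZ-derived, 33 Glutamatergic 1, 13 Glutamatergic 2 and 22 Undefined. In this field MGE and CGE usually stand for the medial and caudal ganglionic eminence, the embryonic sources of cortical interneurons, and VZ for the ventricular zone. Animals, litters and cultures are not given in the labels. A group of cells therefore counts as 1 sample, nothing was tested, and the SD is the spread between cells of a group. Driver line, animals and batch cannot be told apart. Passed cells held 1710224 to 24836041 counts in 2066 to 14810 genes (median 5363). Summed markers of a class were highest in the class of that label, except for the progenitor and the glutamatergic markers. VZ-derived cells held 237 CPM (counts per 1000000 counts of the cell) of ventricular zone progenitor markers, below the 720.9 CPM of Undefined cells. They also held 1554 CPM of glutamatergic markers, the highest of any label, the Glutamatergic labels included. All 8 microglial markers had counts. They summed to 1113 CPM in the GABAergic class defined below (single cells 0 to 14647, median 0.121) and 351 CPM in glutamatergic cells (0 to 4956, median 0.147), so a few cells held most of them; their part in the results was not tested.

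Oxidative phosphorylation passes electrons from NADH through complex I, or from succinate through complex II, to complex III, over cytochrome c to complex IV and oxygen. Complexes I, III and IV pump protons across the inner mitochondrial membrane, and complex V, the ATP synthase, uses their return to make ATP. Most subunits are encoded in the nucleus and imported, while the mitochondrial genome (mtDNA) encodes the rest, so the complexes are built from 2 genomes. Neurons rely on the pathway for the energy of ion pumping and synaptic transmission, and several subunits exist as isoforms used in particular tissues.

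All 86 genes had at least 1 count, and 76 had a count in at least 50% of the passed cells. Together they held 16576 CPM, or 1.66% of all counts. Of that sum, which is not corrected for gene length, complex V took 35.9%, complex I 30.03%, complex IV 15.3%, complex III 12.3%, complex II 5.43% and cytochrome c 1.00%.

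Per kilobase of transcript, Atp5b was the highest of the 86 genes. It encodes the catalytic beta subunit of ATP synthase and stood at 973 CPM per kilobase, with a count in 147 of 148 cells. Next in complex V came Atp5g3, one of the genes for subunit c of the membrane ring, with 522 CPM per kilobase, and Atp5c1, which encodes the gamma subunit of the rotating stalk, with 452 CPM per kilobase. In complex IV the highest were Cox4i1 (628 CPM per kilobase), the common isoform of subunit 4, Cox6c (473) and Cox5a (443), all small nuclear subunits around the catalytic core. Among genes with complex I symbols, Ndufa4, known as a subunit of complex IV, stood at 465 CPM per kilobase, and the accessory subunit genes Ndufb8 and Ndufa11 at 406 and 314. In complex III, Uqcr11 stood at 325 CPM per kilobase, Uqcrc1, a core protein gene, at 323, and Uqcrb at 305. All of these were detected in at least 126 of the 148 cells.

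Within complex II, the dehydrogenase shared with the citric acid cycle, the 4 genes differed in level. Sdhb, which encodes the iron-sulfur subunit, stood at 278 CPM per kilobase and Sdhd, a membrane anchor, at 207. Sdha, the flavoprotein, stood at 85.7 CPM per kilobase and Sdhc, the other anchor, at 24.9. Cyc1, the cytochrome c1 of complex III, stood at 205 CPM per kilobase, against 53.1 for Cycs, whose annotated transcript is long at 3123 bases.

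**Figure D1:**
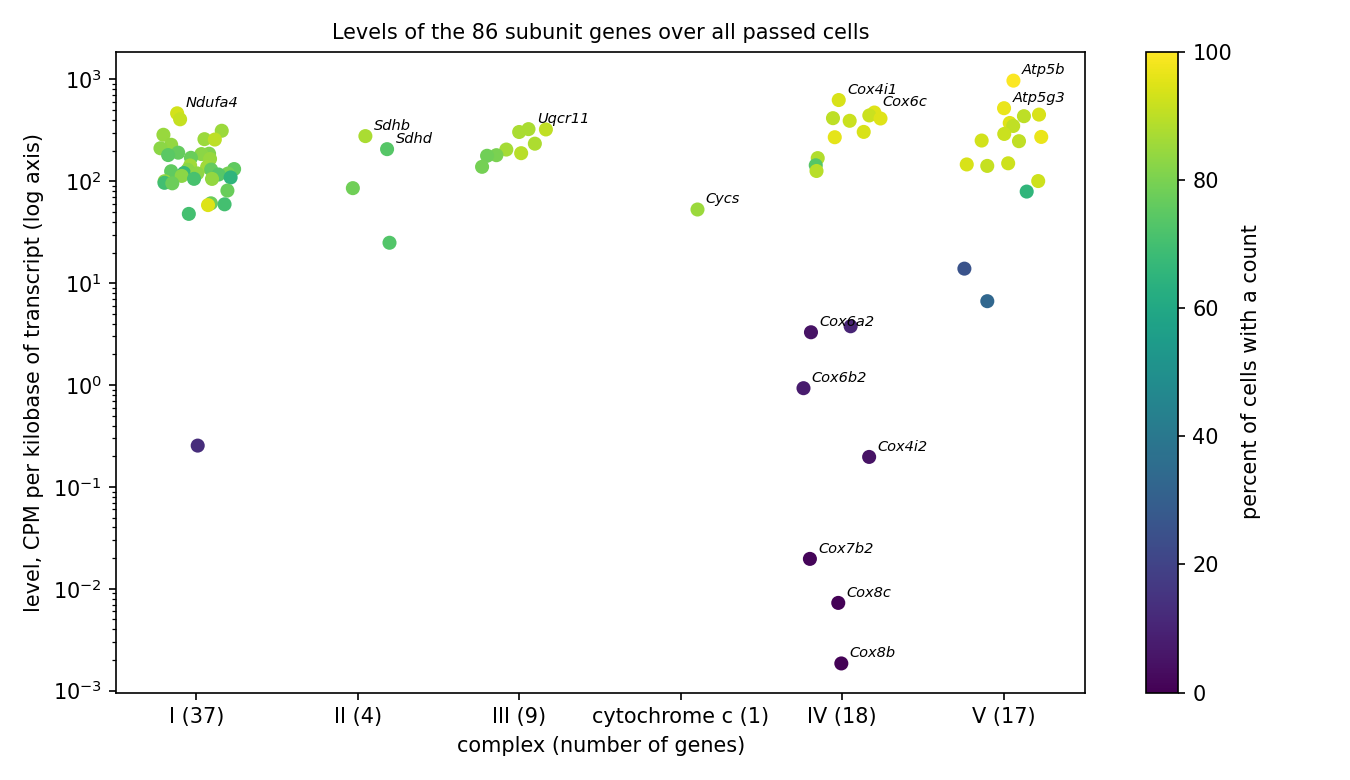
Level of each of the 86 genes over all 148 passed cells, in CPM per kilobase of transcript on a log axis, by complex; colour gives the percent of cells with a count. Atp5b stands highest at 973 CPM per kilobase, and the genes under 10 CPM per kilobase include 7 of complex IV.

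The low genes were mostly alternative isoforms. Cox4i2, Cox6a2, Cox6b2, Cox7b2, Cox8b and Cox8c had a count in under 10% of cells, while their partners Cox4i1, Cox6a1, Cox6b1, Cox7b and Cox8a had one in 132 to 141 cells. Cox6a2, known from heart and skeletal muscle, held 3369 counts in 7 cells, of which 2533 lay in 1 Glutamatergic 1 cell at 226 CPM; without the cell of most counts its level over all cells was 0.560 CPM instead of 2.24 CPM. Cox4i2, known for its induction in lung and at low oxygen, held 216 counts in 7 cells. Cox6b2, known from testis, held 774 counts in 11 cells. Cox7b2 held 16 counts in 2 cells, Cox8c 5 counts in 1 cell and Cox8b 1 count. Ndufa4l2, a hypoxia-induced relative of Ndufa4, had a count in 19 cells and stood at 0.254 CPM per kilobase, against 465 for Ndufa4. These cells thus carried the common isoform of each pair at a far higher level than the other.

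Cox7a1, the heart and muscle isoform of subunit 7a, was unevenly spread over labels. Cajal Retzius cells, which secrete reelin in the outermost layer of the cortex, held 7.12 CPM (Poisson interval 6.71 to 7.55), and 5 of 12 had a count (41.7%, Clopper-Pearson interval 15.2% to 72.3%), against 0.0154 CPM (0.00621 to 0.0318) and 1 of 46 glutamatergic cells (2.17%, 0.0550% to 11.5%). Single values ran from 0 to 25.5 CPM with a median of 0 in Cajal Retzius cells, and from 0 to 2.83 CPM with a median of 0 in glutamatergic cells, so the ranges overlapped at 0. Without the cell of most counts, Cox7a1 stood at 5.51 CPM in Cajal Retzius cells and at 0 in glutamatergic cells. The 2.70 CPM of MGE-derived 1 cells came from 1 cell, as did the 2.63 CPM of CGE-derived cells. Its common partner Cox7a2 stood at 203 CPM in Cajal Retzius cells, against 180 CPM in Glutamatergic 2 and 234 CPM in Glutamatergic 1 cells. All intervals are at 95%. Poisson intervals cover counting error only, and since reads were not tied to molecules by identifiers, they are too narrow even for that. Clopper-Pearson intervals treat cells as independent draws. Animals are not known, so these intervals describe the cells at hand and give no spread between animals. For the 76 widely detected genes, the Poisson interval by label reached at most 5.82% of the value to either side, and it is left out elsewhere except for Ndufa8.

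Subunit c of ATP synthase forms the ring that protons turn, and 3 genes encode the same mature protein with different import signals. Atp5g3 gave 54.3% of their summed CPM over all passed cells, Atp5g1 39.0% and Atp5g2 6.73%. Shares of the 3 genes in this paragraph are not corrected for transcript length, which was 2675.5 bases for Atp5g1, 718.5 for Atp5g3 and 586 for Atp5g2. Per kilobase, Atp5g3 stood at 522 CPM, Atp5g1 at 101 and Atp5g2 at 79.3, so Atp5g1 was much nearer to Atp5g2. By label, the share of Atp5g3 ran from 49.4% (MGE-derived 2) up to 59.1% (CGE-derived), and that of Atp5g1 between 36.2% in CGE-derived and 41.5% in Glutamatergic 2 cells. Atp5g3 was the highest of the 3 in 99 of 148 cells, Atp5g1 in 44 and Atp5g2 in 3. The share of Atp5g2 was 12.1% in MGE-derived 1 cells and 4.64% in Undefined cells, the ends of its range, but 87.4% of its 50-base stretches also occur in transcripts of other genes, so its count is uncertain. The same holds for Atp5l (84.8%), Cox7c (53.0%) and Atp5o (50.3%). The promoters of the 3 subunit c genes are shown since one protein is read from 3 starts. The windows hold 250 bases before and 50 bases after the annotated start, from RefSeq on GRCm38.p6, on the minus strand at chr11:96075582-96075881 for Atp5g1, chr15:102670998-102671297 for Atp5g2 and chr2:73911277-73911576 for Atp5g3. Capitals mark matches to the motifs named after them.
Atp5g1: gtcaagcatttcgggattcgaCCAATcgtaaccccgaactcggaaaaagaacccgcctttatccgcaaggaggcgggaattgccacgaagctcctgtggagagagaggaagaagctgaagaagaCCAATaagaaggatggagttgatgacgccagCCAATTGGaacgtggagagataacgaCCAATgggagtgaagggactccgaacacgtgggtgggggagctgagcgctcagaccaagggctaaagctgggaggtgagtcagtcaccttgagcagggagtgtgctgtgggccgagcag
Atp5g2: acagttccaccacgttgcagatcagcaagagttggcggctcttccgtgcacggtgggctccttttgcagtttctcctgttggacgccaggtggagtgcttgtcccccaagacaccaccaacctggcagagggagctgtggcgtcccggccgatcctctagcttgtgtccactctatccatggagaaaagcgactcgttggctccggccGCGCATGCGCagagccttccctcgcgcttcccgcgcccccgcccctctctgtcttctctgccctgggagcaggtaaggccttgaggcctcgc
Atp5g3: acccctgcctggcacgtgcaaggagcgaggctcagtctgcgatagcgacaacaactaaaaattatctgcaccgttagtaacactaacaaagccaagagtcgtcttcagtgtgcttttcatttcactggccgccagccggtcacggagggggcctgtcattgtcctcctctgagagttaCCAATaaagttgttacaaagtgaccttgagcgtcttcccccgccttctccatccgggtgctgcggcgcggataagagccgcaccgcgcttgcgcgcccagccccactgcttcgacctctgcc
The capitals in Atp5g1 and Atp5g3 are CCAAT boxes (CCAAT, on either strand), and those in Atp5g2 are the consensus motif of NRF1, a regulator of respiratory chain genes.

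A promoter window was found for 68 of the 86 genes, and each motif was searched on both strands. The NRF1 motif occurred in windows of 5 of the 68 genes (7.35%), namely Atp5g2, Atp5k, Cox6a1, Ndufa11 and Uqcrc1, against 1.07% of all 27025 genes with a window. The motif AAGATGGC of YY1, another regulator of these genes, occurred in 10 of 68 (14.7%), against 3.19% of all genes; 7 of the 10 have complex I symbols, 2 encode complex V subunits and 1 is Atp5sl. CCGGAAGT, a motif of ETS factors, occurred in 5 of 68 (7.35%), against 4.31%, and CCAAT in 31 of 68 (45.6%), against 41.1%. A match describes the letters in this window only.

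The summed level of the 86 genes was similar between labels. Cajal Retzius cells had the highest mean, at 19628 ± 4860 CPM (SD over 12 cells), followed by Glutamatergic 1 cells at 17658 ± 7579 CPM. The GABAergic label averaged 16481 ± 4269 CPM, Undefined cells 16186 ± 5661 CPM and MGE-derived 2 cells 16176 ± 4847 CPM. The lowest means were 14899 ± 5226 CPM in CGE-derived, 14837 ± 3770 CPM in MGE-derived 1, 14367 ± 4175 CPM in Glutamatergic 2 and 14255 ± 4075 CPM in VZ-derived cells. Neighbours in this order differed by less than the SD between cells, and the gap from the highest to the lowest mean was a little over 1 SD of either. Single cells ran from 6000.5 CPM in an Undefined cell to 42235 CPM in a Glutamatergic 1 cell.

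**Figure D2:**
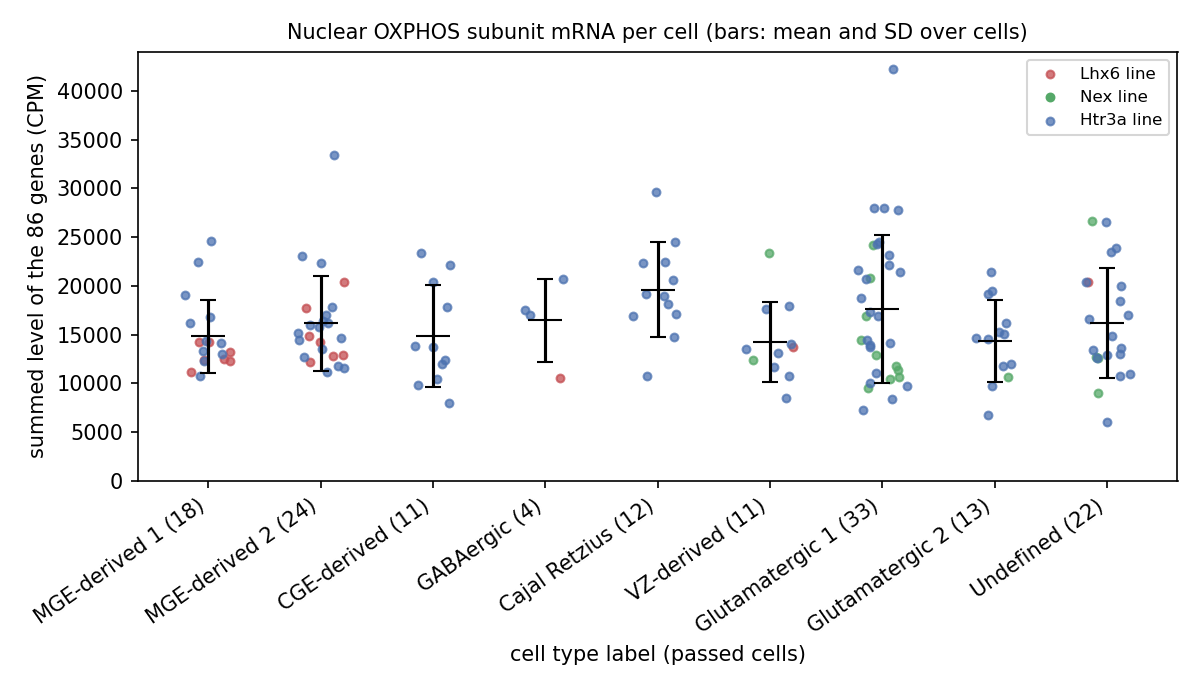
Summed level of the 86 genes in each passed cell (CPM) by cell type label, with the number of cells in brackets; colour gives the driver line and bars the mean and SD over cells. The ranges of all labels overlap, and the highest cell is a Glutamatergic 1 cell of the Htr3a line at 42235 CPM.

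Between cells, single genes varied far more than their sum. The coefficient of variation of the 76 widely detected genes over the 148 cells had a median of 1.01 and ran from 0.509 for Atp5b to 2.07 for Ndufs1, the largest subunit of complex I. How many of the 86 genes had a count went with the number of genes detected in the cell (Spearman's rho 0.87 over 148 cells), while their summed CPM did not (rho 0.08). The sums of complexes I and IV (rho 0.66), I and V (0.63) and IV and V (0.58) went together more closely than those of complexes II and IV (0.23). These values are a description, since the cells share labels, lines and depth.

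Groups were then compared gene by gene. Each cell's CPM was put on a log2(CPM + 1) scale and averaged over the group, and the difference of these means is given. Genes with a count in 10% or more of either group were counted, where higher or lower means a difference of at least 1 in size. Since a cell with no count enters this scale as 0, the difference follows detection, and genes per cell are given beside it. In none of the 9 comparisons did any of the 86 genes have groups that did not overlap; over all genes the share that did was 0.0588% and 0.00648% for the Lhx6 line in MGE-derived 1 and 2 cells, 0.055% for Cajal Retzius cells and 0 otherwise.

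Cells of the GABAergic class (57 cells labelled MGE-derived, CGE-derived or GABAergic) held about the same nuclear subunit mRNA as glutamatergic cells (46 cells of both Glutamatergic labels). The sum averaged 15528 ± 4505 CPM in the GABAergic class and 16728 ± 6910 CPM in glutamatergic cells, a log2 difference of -0.05 (SD 0.38 and 0.57). Of 80 counted genes, 6 were higher and 5 lower, near the 6.07% and 9.74% of all counted genes, and the median difference was 0.03, against -0.02 over all genes. By summed counts, 1 gene was 2-fold higher and 1 lower, against 15.8% and 15.3%. Median genes per cell were 4894 in the GABAergic class and 5620.5 in glutamatergic cells. No gene met the naming rule, which asks for a count in at least 50% of the cells of the higher group, a difference of at least 1 and a 2-fold change of summed counts.

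Cycs came closest to it. It stood at 108 CPM in the GABAergic class (lowest 0, median 89.6, highest 491) and at 212 CPM in glutamatergic cells (lowest 0, median 141, highest 2164), a log2 difference of -1.07 (SD 3.17 and 3.004). The ranges overlapped, and the difference was within the spread between cells. The 4 labels of the GABAergic class had 100.5 to 119.7 CPM of Cycs, Glutamatergic 1 cells 251, Cajal Retzius cells 228 and Glutamatergic 2 cells 139.7. Atp5b was alike in both classes, at 1757 CPM in the GABAergic class and 1856 CPM in glutamatergic cells, a log2 difference of -0.26.

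The subunits encoded by mtDNA did not follow the nuclear ones. Their 13 genes summed to 10485 CPM in the GABAergic class and 5185 CPM in glutamatergic cells, a 2.02-fold ratio, and the log2 difference of the sum was 1.02 (SD 1.01 and 1.20). Of the 13 genes, 12 were higher and none lower, with a median difference of 1.43, against the same background of 6.07% higher. Within the Htr3a line alone the sums were 10747 and 5424 CPM in GABAergic class and glutamatergic cells, with 6 of 13 genes higher and none lower, where 6.95% of all genes were higher. The 3 genes with the largest difference, mt-Co3 (2.23), mt-Atp6 (2.11) and mt-Co2 (2.08), have at least 99.5% of their 50-base stretches in transcripts of nuclear copies, so their low counts are uncertain. In the Htr3a line alone their differences were 0.84, 0.89 and 0.88 in that order, under the threshold. Within one label they also differed by line: mt-Co3 stood at 596 CPM in the Lhx6 line and 69.7 CPM in the Htr3a line among MGE-derived 1 cells (log2 difference 3.42), and at 832 and 48.4 CPM in that order among MGE-derived 2 cells (4.64). The 6 genes that share at most 50% of theirs with annotated nuclear transcripts, led by mt-Cytb and mt-Nd1, summed to 6866 CPM in the GABAergic class (503 to 34115, median 5783) and 3574 CPM in glutamatergic cells (0.652 to 28332, median 3108). The ranges overlapped widely while the medians lay apart.

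Within a cell, the ratio of mtDNA-encoded to nuclear subunit CPM had a median of 0.591 in the GABAergic class and 0.293 in glutamatergic cells. By label the median was 0.610 for MGE-derived 1, 0.589 for MGE-derived 2, 0.560 for GABAergic and 0.383 for CGE-derived cells. It was 0.545 in Undefined, 0.328 in VZ-derived, 0.309 in Glutamatergic 2, 0.277 in Glutamatergic 1 and 0.224 in Cajal Retzius cells. Since the nuclear sum is the denominator, the high nuclear sum of Cajal Retzius cells lowers their ratio by construction. Their mtDNA-encoded sum was 4737 CPM, against 4399 CPM in Glutamatergic 2 cells. The log2 ratio averaged -0.85 ± 0.98 in the GABAergic class and -1.92 ± 1.06 in glutamatergic cells (SD over 57 and 46 cells), a gap of about 1 SD.

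**Figure D3:**
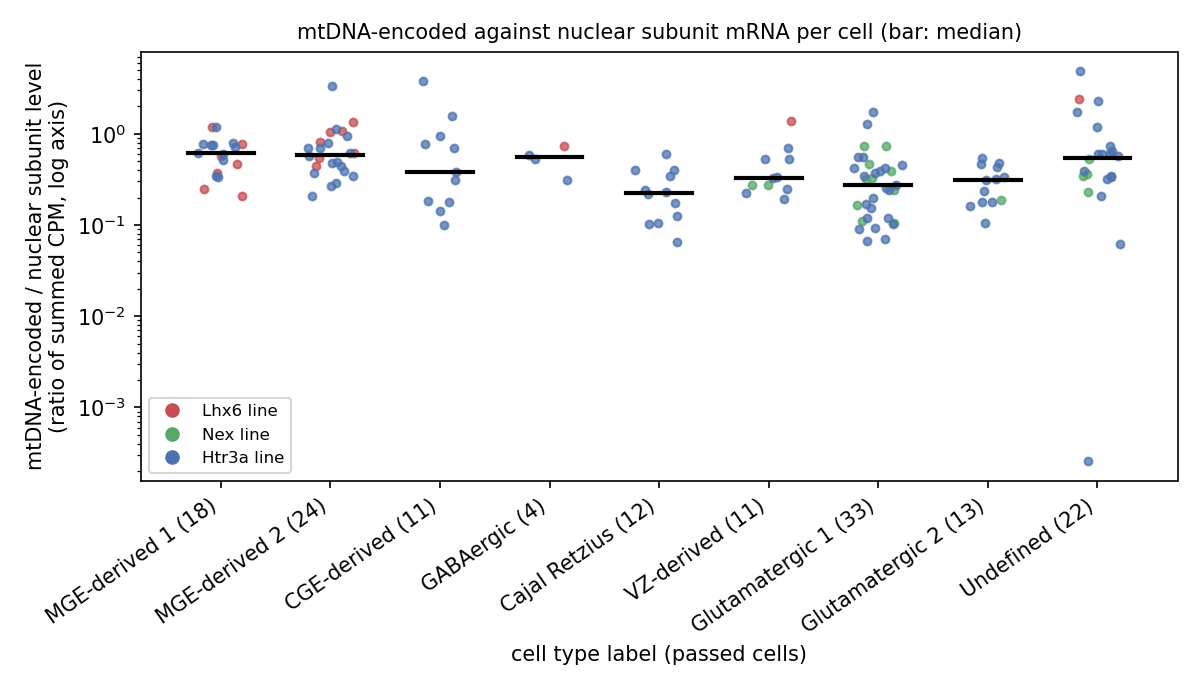
Ratio of the summed CPM of the 13 mtDNA-encoded subunit genes to that of the 86 nuclear genes in each passed cell, on a log axis, by cell type label; colour gives the driver line and bars the median. Medians are 0.560 to 0.610 in the MGE-derived and GABAergic labels and 0.224 in Cajal Retzius cells, with overlapping ranges.

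In other energy pathways, counts are read against the 6.07% of all genes higher and 9.74% lower. Of 17 glycolysis genes, 1 was higher and 7 lower in the GABAergic class, and their sum was 5044 CPM there and 7451 CPM in glutamatergic cells. Pfkp, the platelet-type phosphofructokinase of the committed step, stood at 211 CPM in the GABAergic class and 970 CPM in glutamatergic cells (log2 difference -3.55, SD 3.71 and 2.73). Eno2, the neuronal enolase, stood at 53.4 and 202 CPM in the 2 classes in the same order, and Aldoa, an aldolase, at 298 and 732 CPM. Of 7 carrier and channel genes of the mitochondrial membranes, 4 were lower, among them Vdac1, Vdac3 and Vdac2, the channels of the outer membrane (-1.52, -1.49 and -1.20). The median difference of these 7 genes was -1.04 by cell means but -0.306 by summed counts. For glycolysis it was -0.701 and -0.397 in that order, and over all genes -0.018 and 0.042. Of 16 genes of the citric acid cycle and pyruvate dehydrogenase, 1 was higher and 3 lower. Of 15 complex I assembly factors, 1 was lower, and of 34 counted other assembly factors, 1 was higher and 4 lower, both near those shares. Of 15 regulators of mitochondrial gene expression, 1 was higher, also near the share of all genes: Tfam, which packages and transcribes mtDNA, at 84.3 CPM in the GABAergic class and 46.1 CPM in glutamatergic cells (log2 difference 1.12).

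MGE-derived cells (42, both labels) and CGE-derived cells (11) had close sums, at 15602 ± 4418 CPM for MGE-derived cells, against 14899 ± 5226 CPM for CGE-derived cells (log2 difference 0.10). Of 79 counted genes, 18 were higher and 7 lower, against 17.4% and 10.8% of all genes; by summed counts 5 were higher and 1 lower, against 32.4% and 13.9%. Ndufv1, which encodes the NADH-binding subunit of complex I, stood at 205 CPM in MGE-derived cells (0 to 602, median 202) and 101 CPM in CGE-derived cells (0 to 315, median 26.2), a log2 difference of 2.37 (SD 3.35 and 3.66). Atp5d, the delta subunit of the ATP synthase stalk, stood at 253 CPM in MGE-derived cells and 111 CPM in CGE-derived cells (1.82). Ndufa1, an accessory subunit on the X chromosome, stood at 100.1 CPM in MGE-derived cells, against 43.2 CPM for CGE-derived ones (1.78, and 0.90 among cells with at least 4000 genes). Atp5g2 was higher as well, at 64.5 CPM in MGE-derived cells, against 23.6 CPM for CGE-derived ones, with the uncertainty and the difference by line given above. Ndufa5, another accessory subunit, was lower: 89.0 CPM in MGE-derived cells (0 to 274, median 68.8) and 182 CPM in CGE-derived cells (45.5 to 621, median 105), a log2 difference of -1.73 (SD 2.40 and 1.21). All 11 CGE-derived cells had a count of it, and 37 of 42 MGE-derived cells.

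Between the MGE-derived labels, the sums were 14837 ± 3770 CPM in MGE-derived 1 and 16176 ± 4847 CPM in MGE-derived 2 cells. Of 81 counted genes, 3 were higher and 18 lower in MGE-derived 1, where 2.61% and 22.6% of all genes were. The median difference was -0.55, against -0.39 over all genes, with a median of 4563 genes per cell in MGE-derived 1 and 5493.5 in MGE-derived 2 cells. No gene met the naming rule. By summed counts none was higher and 2 were lower, against 14.4% and 25.2%, with a median of -0.08.

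Median differences by cell means and by summed counts lay furthest apart between Glutamatergic 1 and Glutamatergic 2 cells. None of 79 counted genes was higher and 38 were lower in Glutamatergic 1, where 1.19% and 48.7% of all genes were, and the median difference was -0.93, against -0.97 over all genes. Yet the sum was higher, at 17658 ± 7579 CPM in Glutamatergic 1 and 14367 ± 4175 CPM in Glutamatergic 2 cells, and by summed counts the median difference was 0.28, with 2 genes higher and none lower, against 13.8% and 20%. Median genes per cell were 4954 in Glutamatergic 1 and 7585 in Glutamatergic 2 cells, and 76 of the 79 genes were detected in a smaller share of Glutamatergic 1 cells. No gene met the naming rule.

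Cajal Retzius cells had the highest mean of nuclear subunit mRNA, though Glutamatergic 1 cells of the Htr3a line were close to it, at 19119 ± 8154 CPM. Of 81 counted genes, 48 were higher and none lower than in glutamatergic cells, against 34% and 7.97% of all genes, with a median difference of 1.16, against 0.51 over all genes. The count covered 24 of 37 genes of complex I, all 4 of complex II, 6 of 9 of complex III, 5 of 13 counted of complex IV, 8 of 17 of complex V, and Cycs. All 12 Cajal Retzius cells came from the Htr3a line, as did 35 of the 46 glutamatergic cells. Within that line 33 of 81 genes were higher and none lower, against 30.5% and 9.13% of all genes, with a median difference of 0.83, against 0.42 over all genes. By summed counts the sum was 1.21-fold higher, the median difference was 0.27, against -0.10 over all genes, and 2 genes were higher and none lower, where 15.6% and 25.3% of all genes were. Cajal Retzius cells had a median of 6714 genes and glutamatergic cells 5620.5, and 78 of the 81 genes were detected in a larger share of Cajal Retzius cells, as were 74.0% of all genes. What part of the difference goes with detection was not tested beyond these values.

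Atp5b, Cox4i1 and Cycs, chosen after their values were seen, were even across Cajal Retzius cells and uneven across glutamatergic cells. The former were 12 cells of the Htr3a line, the latter 46 cells of both Glutamatergic labels and of the Htr3a and Nex lines. Sums of complexes I, IV and V also had a smaller log2 SD in Cajal Retzius cells. That of complex III was alike (0.66 in both), and that of complex II larger (3.003 in Cajal Retzius, 2.35 in glutamatergic cells). Atp5b ran from 1653 to 3775 CPM in Cajal Retzius cells (median 2473) and from 103 to 3876 CPM in glutamatergic cells (median 1738), a log2 difference of 0.73 (SD 0.32 and 1.08). Cox4i1 ran from 338 to 1091 CPM in Cajal Retzius cells (median 622) and from 0 to 3173 CPM in glutamatergic cells (median 407), a difference of 1.43 (SD 0.56 and 2.97). Cycs ran from 77.8 to 340 CPM in Cajal Retzius cells (median 216) and from 0 to 2164 CPM in glutamatergic cells (median 141), a difference of 1.46 (SD 0.61 and 3.004). Cajal Retzius cells lay inside the range of the glutamatergic cells for each of these. One gene met the naming rule: Ndufv3, a small subunit of the NADH-oxidising arm of complex I, at 182 CPM in Cajal Retzius cells (0 to 444, median 130) and 85.8 CPM in glutamatergic cells (0 to 337, median 58.8), a difference of 1.82 (SD 2.30 and 2.92). Among cells with at least 4000 genes the difference of Ndufv3 was 0.93, under the threshold.

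Most other energy pathway lists also had a larger share of higher genes than all genes did on the log2 scale of cell means. Of 16 citric acid cycle and pyruvate dehydrogenase genes 11 were higher, of 16 counted glycolysis genes 10, of 15 complex I assembly factors 9 and of 35 other assembly factors 17, against the 34% above; 1 complex I assembly factor was lower. Of 7 carriers and channels, 2 were higher, below that share. Of 15 regulators of mitochondrial gene expression 9 were higher and none lower, led by Ppargc1a, which encodes the coactivator PGC-1alpha. It stood at 109.6 CPM with a count in 8 of 12 Cajal Retzius cells, against 0.541 CPM and 3 of 46 glutamatergic cells (log2 difference 4.48, SD 3.76 and 0.76). Ppargc1a passed the 10% filter only through Cajal Retzius cells, the group where it was high. Of the 13 mtDNA-encoded genes 4 were higher, also below that share, and none within the Htr3a line, while their sum was 4737 CPM in Cajal Retzius and 5185 CPM in glutamatergic cells. By summed counts, the median difference was smaller in every list, and over all genes, than by cell means. It was 0.056 for complex I assembly factors, 0.068 for other assembly factors, 0.175 for the citric acid cycle list and 0.271 for glycolysis. For regulators it was 0.461, for carriers and channels 0.462 and for mtDNA-encoded genes 0.375, against -0.104 over all genes. What part of the higher shares goes with detection was not tested.

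VZ-derived cells had a sum of 14255 ± 4075 CPM, against 16728 ± 6910 CPM in glutamatergic cells (log2 difference -0.17). Of 79 counted genes, 5 were higher and 15 lower, against 11.6% and 14.7% of all genes; by summed counts none was higher and 5 were lower, against 14.3% and 28.4%. Among the lower genes that met the naming rule were Ndufa10, Sdhc and Cox5b. Ndufa10, an accessory subunit of complex I, stood at 66.9 CPM in VZ-derived cells (0 to 309, median 12.1) and 255 CPM in glutamatergic cells (0 to 1053, median 173), a difference of -2.34 (SD 3.58 and 3.56). Sdhc stood at 40.6 CPM in VZ-derived and 91.3 CPM in glutamatergic cells (-1.59), and Cox5b, a peripheral subunit of complex IV, at 69.0 and 138 CPM in the same order (-1.50). All of these groups overlapped from 0 upward.

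Among cells of one label, 1 gene was higher by the naming rule in the Lhx6 line under both MGE-derived labels. This gene, Ndufa8, which encodes an accessory subunit of complex I in the intermembrane space, stood at 473 CPM (Poisson interval 467 to 479) in MGE-derived 1 cells of the Lhx6 line and 166 CPM (163 to 168) in those of the Htr3a line. In MGE-derived 2 cells it stood at 548 CPM (541 to 555) in the Lhx6 line and 156 CPM (155 to 158) in the Htr3a line. Single MGE-derived 1 cells of the Lhx6 line had 148, 227, 296, 526, 547, 707 and 865 CPM (7 cells), and those of the Htr3a line 5.39 to 352 CPM with a median of 133 (11 cells). Single MGE-derived 2 cells of the Lhx6 line had 121, 302, 436, 663, 694, 709.6 and 921 CPM (7 cells), and those of the Htr3a line 0 to 429 CPM with a median of 127 (17 cells). Both labels thus had most Lhx6-line cells above the highest Htr3a-line cell, with an overlap at the low end. The log2 difference was 2.17 in MGE-derived 1 (SD 0.93 and 1.97) and 3.86 in MGE-derived 2 cells (SD 1.01 and 3.63). Among cells with at least 4000 genes it was 0.90 in MGE-derived 1 cells, under the threshold, and 3.45 in MGE-derived 2 cells. How large a share of all genes meets the naming rule under both labels was not counted.

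Over all labels, 16 of the 17 passed Lhx6-line cells were above the median of the other 131 cells, which was 105 CPM, and 2 of the 131 were above the Lhx6-line median of 526 CPM. The 3 Lhx6-line cells of other labels had 334 CPM (GABAergic), 658 CPM (Undefined) and 0 CPM (VZ-derived). Cells of the Htr3a line alone had similar levels under each interneuron label: 166 CPM (MGE-derived 1), 156 CPM (MGE-derived 2) and 149 CPM (CGE-derived). Ndufa8 was among the genes called higher in MGE-derived than in CGE-derived cells, where 14 of the 42 MGE-derived cells and no CGE-derived cell came from the Lhx6 line.

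Ndufa8 is a neighbour of the gene that names the line. On GRCm38 it lies on the minus strand of chromosome 2 from 36036326 to 36049406, and Lhx6 from 36081953 to 36105408, 32.5 kilobases away; no other of the 86 genes lies within 1 megabase of Lhx6, Htr3a or Neurod6. Lhx6 itself stood at 1936 CPM in the Lhx6 line and 733 CPM in the Htr3a line among MGE-derived 1 cells, and at 1316 and 705 CPM in that order among MGE-derived 2 cells. The gene between them, Morn5, had no count in the MGE-derived cells of the Lhx6 line. Rbm18, beyond Lhx6, stood at 836 CPM in the Lhx6 line and 89.8 CPM in the Htr3a line among MGE-derived 1 cells (log2 difference 6.19), and at 424 and 208 CPM among MGE-derived 2 cells, where the log2 difference was -0.77. Mrrf, next to Rbm18, stood at 94.8 and 5.24 CPM among MGE-derived 1 cells and at 14.1 and 25.4 CPM among MGE-derived 2 cells, in the same order. Of the genes on either side, then, only Ndufa8 and Lhx6 were higher in the Lhx6 line on the log2 scale by at least 1 in both labels. By summed counts, Ndufa8 was 2.85- and 3.50-fold higher in MGE-derived 1 and 2 cells, Lhx6 2.64- and 1.87-fold, and Rbm18 9.31- and 2.04-fold. Ttll11, on the other side of Ndufa8, was 3.30- and 2.02-fold higher, with a count in 1 Lhx6-line cell of each label. Whether the place beside Lhx6 has a part in the level of Ndufa8 was not tested. The start of Ndufa8 is shown for this context. The RefSeq window on GRCm38.p6, minus strand, is chr2:36049289-36049588, with capitals for the 50 bases after the annotated start.
Ndufa8: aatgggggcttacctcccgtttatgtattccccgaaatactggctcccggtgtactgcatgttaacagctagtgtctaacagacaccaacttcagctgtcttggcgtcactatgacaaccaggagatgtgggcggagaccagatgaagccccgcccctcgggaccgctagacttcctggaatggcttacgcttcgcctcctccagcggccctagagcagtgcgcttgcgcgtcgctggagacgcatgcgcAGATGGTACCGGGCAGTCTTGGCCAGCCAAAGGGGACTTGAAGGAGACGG
None of the motifs searched above occurs in it as an exact match, and near matches were not searched. Its first bases lie in Morn5, which starts at 36049458 on the other strand.

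**Figure D4:**
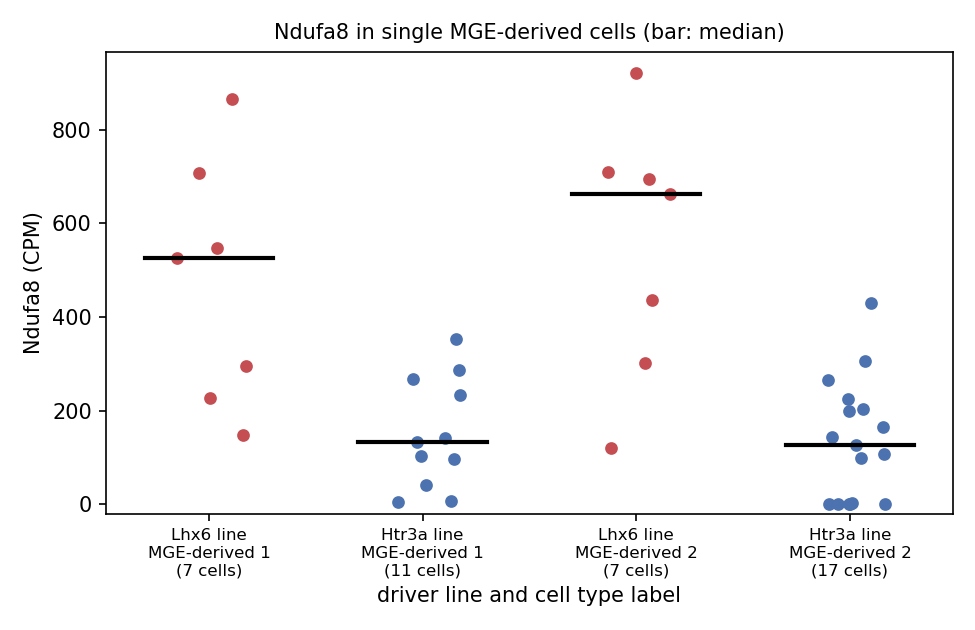
Ndufa8 level (CPM) in single MGE-derived cells by driver line and cell type label; each point is 1 cell and bars are medians. In the Lhx6 line the medians are 526 and 663 CPM, against 133 and 127 CPM in the Htr3a line.

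Without regard to the naming rule, Ndufa10, Ndufa12, Ndufb6 and Sdha were also higher by at least 1 in the Lhx6 line under both labels (1.51, 1.38, 1.85 and 2.33 in MGE-derived 1, 1.55, 2.09, 1.35 and 2.22 in MGE-derived 2), and Uqcrq was lower (-1.35 and -1.59). Over all genes 28.3% were higher in MGE-derived 1 and 8.13% in MGE-derived 2. The share of all genes called under both labels was not counted, so these joint calls are not read as particular to the 86 genes. The 86 genes together were not higher. In MGE-derived 1 cells the sum was 12863 ± 1117 CPM in the Lhx6 line and 16093 ± 4354 CPM in the Htr3a line (log2 difference -0.28). Of 82 counted genes 25 were higher and 4 lower, against 28.3% and 16.2% of all genes, while by summed counts 5 were higher and 15 lower, against 32.6% and 28%. Median genes per cell were 4741 in the Lhx6 line and 4226 in the Htr3a line. Ndufv1 was the other higher gene that met the naming rule, at 296 CPM in the Lhx6 line and 141 CPM in the Htr3a line (1.91). Cox6a1 (-2.19), Sdhb (-2.16), Cox5b (-1.81) and Uqcrq (-1.35) were lower. Uqcrq, a small subunit of complex III, had little spread, at 39.2 to 132 CPM in the Lhx6 line (median 62.8, 7 cells) and 99.8 to 325 CPM in the Htr3a line (median 176, 11 cells), with SDs of 0.61 and 0.56 on the log2 scale. Its ranges met only between 99.8 and 132 CPM. Among cells with at least 4000 genes, the difference of Sdhb was 0.74, the other way, and those of Ndufv1 (0.092) and Cox6a1 (-0.82) were under the threshold.

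In MGE-derived 2 cells the sum was 15020 ± 3016 CPM in the Lhx6 line and 16651 ± 5435 CPM in the Htr3a line (-0.11). Of 81 counted genes 11 were higher and 20 lower, against 8.13% and 31.7% of all genes, and by summed counts 5 and 7, against 15.5% and 36.9%, with a median of 4540 genes per cell in the Lhx6 line and 6494 in the Htr3a line. Beside Ndufa8, Sdha (2.22) and Uqcrc2, a core protein gene of complex III (2.16), were higher. Uqcrc2 had 0.218 to 692 CPM in the Lhx6 line (median 381) and 0 to 563 CPM in the Htr3a line (median 157). The lower genes that met the rule numbered 7: Ndufs8 (-3.62), Ndufb5 (-3.29), Sdhd (-2.51), Ndufb4 (-2.10), Atp5g2 (-2.04), Atp5d (-1.68) and Atp5e (-1.27). Without the cell of highest summed level in each group the difference of Atp5d was -0.60. Ndufs8, an iron-sulfur core subunit, had a count in 2 of 7 cells of the Lhx6 line and 16 of 17 of the Htr3a line. Sdhd was detected in 5 of 7 and 14 of 17 cells in that order. Atp5e, the epsilon subunit of the stalk, ran from 0 to 89.5 CPM in the Lhx6 line (median 51.3) and from 0.226 to 534 CPM in the Htr3a line (median 85.3).

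Glutamatergic 1 cells of the Nex line had less nuclear subunit mRNA than those of the Htr3a line. The sum averaged 14299 ± 4871 CPM in the Nex line (10 cells, 9521 to 24157) and 19119 ± 8154 CPM in the Htr3a line (23 cells, 7324 to 42235), a log2 difference of -0.36 (SD 0.45 and 0.63), which lies within that spread. Of 81 counted genes 3 were higher and 29 lower, against 14.3% and 19.1% of all genes, and the median difference was -0.68, against -0.10 over all genes. By summed counts 2 were higher and 23 lower, against 21.6% and 30.6% of all genes, so the share lower was near that of all genes and the share higher below it; the median on that scale was -0.45, against -0.13 over all genes. Median genes per cell were 4311.5 in the Nex line and 5183 in the Htr3a line.

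The lower genes came from all complexes: 13 of 37 of complex I, 2 of 4 of complex II, 5 of 9 of complex III, 3 of 13 counted of complex IV and 6 of 17 of complex V. Sdhd was detected in 2 of 10 Nex-line cells and 18 of 23 Htr3a-line cells, at 55.8 CPM in the Nex line (0 to 254, median 0) and 283 CPM in the Htr3a line (0 to 958, median 244), a difference of -4.03 (SD 3.33 and 4.05). Ndufb3, an accessory subunit, had a count in 2 of 10 and 18 of 23 cells in that order (-3.64). Cyc1 stood at 144 CPM in the Nex line and 435 CPM in the Htr3a line (-2.85). Ndufa4 stood at 156 CPM in the Nex line (0 to 739.7, median 128) and 417 CPM in the Htr3a line (0 to 835, median 405), a difference of -2.21 (SD 3.26 and 2.08). Atp5k, subunit e of ATP synthase, stood at 22.1 CPM in the Nex line (0 to 63.7, median 12.9) and 80.5 CPM in the Htr3a line (0 to 537, median 67.3), a difference of -2.39. The other named genes were Ndufs4 (-2.70), Ndufb6 (-2.62), Ndufs8 (-2.56), Uqcrh, the hinge protein of complex III (-2.37), and Ndufa5 (-2.17); among cells with at least 4000 genes the differences of Ndufb6 (0.023), Ndufa5 (-0.19) and Uqcrh (-0.98) were under the threshold. Atp5b did not share the pattern, at 1700.4 CPM in the Nex line and 1891 CPM in the Htr3a line, where the log2 difference was 0.24.

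**Figure D5:**
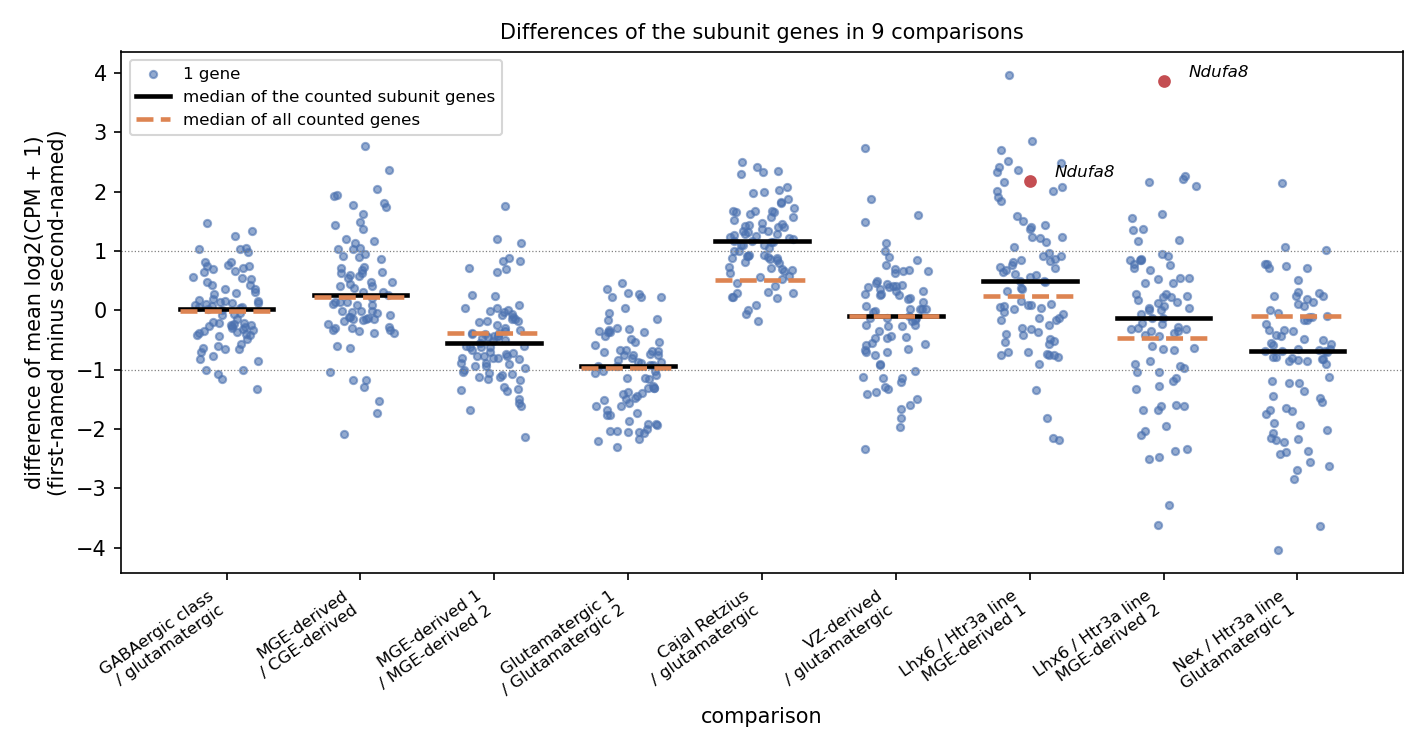
Difference of mean log2(CPM + 1) of each counted gene, first-named minus second-named group, in the 9 comparisons; black bars are medians of these genes, dashed bars those of all counted genes, and dotted lines mark a difference of 1 in size. The medians stand apart most for Cajal Retzius cells (1.16 against 0.51) and for the Nex line (-0.68 against -0.10), and Ndufa8 lies at 2.17 and 3.86 in the comparisons of the Lhx6 line.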

How the data were processed

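RNA of 162 single cells was sequenced. Per the submitters' processing notes, the authors used Trimmomatic, STAR and featureCounts with build GRCm38; versions and strand setting are not given in the sources used here. The authors deposited whole-number counts per Ensembl identifier (22880 rows; 310 had no symbol in GENCODE M21), which were used throughout. The authors also deposited a normalized signal table of 22800 genes in 148 passed cells, used to choose the genes and as an alternative; dividing each cell's counts by a constant gave 99.8% of its values to within 0.1%. A table of counts by symbol was held only in part and not used.

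Cells were grouped by the submitters' labels for cell type, Cre line and quality. Of the 86 genes, 85 matched by symbol and 1 by its newer name. CPM used the sum of all Ensembl rows of a cell. Differences are between group means of log2(CPM + 1), for genes seen in 10% or more of either group. CPM of summed counts carry exact Poisson and shares Clopper-Pearson 95% intervals. Levels per kilobase use the median length of principal transcripts of GENCODE M21; shared sequence was searched as identical 50-base stretches of transcripts. The naming rule asks for detection in 50% or more of the higher group, a log2 difference of 1 or more and a fold of summed counts of 2 or more, and takes at most 10 genes in each direction; isoform sets, Sdh genes, Cycs, Cyc1, the 3 highest genes per kilobase of each complex and up to 3 genes per pathway list were named as well. Other genes, such as the neighbours of Ndufa8, and Atp5b, Cox4i1 and Cycs as examples of even levels, were chosen after their values were seen. One gene that met the naming rule is not reported here. The genes, lists and comparisons were chosen with earlier results of these data known. Scripts (Python 3.11.15, numpy 2.4.6, pandas 2.3.3, scipy 1.17.1, matplotlib 3.10.9) were tested on simulated data with known folds.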

Additional observations from a re-analysis of the deposited data

Results flagged for a closer look

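In the 10 Glutamatergic 1 cells of the Nex line, the complex I sum of cell 33 was 9785 CPM, far from the other 9 cells (2103 to 5916 CPM), and the cell held 3460 genes. In the same group, Cycs in cell 25 was 2164 CPM, against 0 to 245 CPM in the others; this cell had the fewest genes of all passed cells, 2066. Of 40 sets of 4 to 10 cells checked for a single distant cell, these 2 stood out, and chance gives about 1 in every 20.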

How the results depend on the processing

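The summed level of the 9 comparisons moved by less than the spread between cells under the alternatives tried. Its sign changed for the GABAergic class (-0.066 to 0.043), MGE-derived against CGE-derived (-0.040 to 0.169) and MGE-derived 1 against 2 (-0.144 to 0.017). The median difference moved by less than the spread of a single gene between cells, but it changed sign by summed counts for Glutamatergic 1 against 2 (0.28), the Lhx6 line in MGE-derived 1 (-0.44), the GABAergic class (-0.02) and MGE-derived against CGE-derived (-0.01), in cells with at least 4000 genes for the last of these (-0.0072) and in the Htr3a line alone for the GABAergic class (-0.22); for Cajal Retzius cells it was 0.27 by summed counts. Counts of genes higher or lower moved by over 1.5 times most often with a pseudocount of 10 and by summed counts, both of which give undetected cells less weight. Shares of all genes are given above by summed counts and for some counts in the Htr3a line, but not for the other settings. The counts below therefore describe the settings and are not read as results about these genes. Medians over all genes moved as well, for Cajal Retzius cells from 0.51 to 0.19 with a pseudocount of 10. With a pseudocount of 10, genes higher and lower numbered 0 and 0 for the GABAergic class, 9 and 3 for MGE-derived against CGE-derived, 1 and 3 for MGE-derived 1 against 2, 3 and 5 for VZ-derived cells, 14 (higher) and 13 (lower) for the Lhx6 line in MGE-derived 1 and 2, 5 lower for Glutamatergic 1, 20 higher for Cajal Retzius and 1 higher for the Nex line. By summed counts they were 1 and 1 for the GABAergic class, 5 and 1 for MGE-derived against CGE-derived, 0 and 2 for MGE-derived 1 against 2, 2 and 0 for Glutamatergic 1, 0 and 5 for VZ-derived, 5 and 15 for the Lhx6 line in MGE-derived 1, 5 and 7 in MGE-derived 2, and 2 higher for Cajal Retzius. In cells with at least 4000 genes they were 7 and 9 for MGE-derived 1 against 2, 2 and 20 for Glutamatergic 1, 16 and 13 for the Lhx6 line in MGE-derived 1, 26 higher for Cajal Retzius and 5 higher for the Nex line. In the Htr3a line alone they were 3 and 12 for the GABAergic class, 5 and 34 for MGE-derived 1 against 2, 1 higher for Glutamatergic 1 and 23 lower for VZ-derived cells. The authors' normalized values gave 11 higher for the GABAergic class and 7 higher for MGE-derived 1, and without the cell of highest sum 7 were lower for the Lhx6 line in MGE-derived 1. In cells with at least 4000 genes Sdhb (0.74, Lhx6 line) and Ndufb6 (0.023, Nex line) changed direction; the cause was not tested. Just under the threshold of 1 were, with a pseudocount of 10, Atp5g2 (0.85, MGE-derived against CGE-derived), Sdhc (-0.90, VZ-derived), Ndufb4 (-0.97) and Atp5e (-0.91, both Lhx6 line in MGE-derived 2), and by summed counts Cox5b (-0.99, VZ-derived) and Ndufb4 (-0.99). Leaving out each of the 4 cells of the GABAergic label put its level between 14953 and 18469 CPM. Leaving out the genes with over 50% shared stretches, chosen after seeing the data, reads thinned to 1500000 per cell, a denominator without mitochondrial and ribosomal RNA and no filter on low values each moved no count by over 1.5 times. No paired analysis was possible because cell numbers pair no cells and no label names an animal or batch.

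With 1 sample per group, line, animals and batch cannot be told apart, and a low level in few cells limits what Cox7a1 and the other rare isoforms show.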
